A study of Mus musculus with 12 samples.

Results

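The 10 genes described here include those of the secreted surfactant proteins (Sftpa1, Sftpb, Sftpc, Sftpd). Napsa and Ctsh encode proteases that mature the products of Sftpb and Sftpc. The others encode membrane proteins of the lamellar body (Abca3, Lamp3), the apical phosphate transporter of the same cells (Slc34a2) and lysozyme (Lyz2). All 10 genes were matched by symbol to an expression table of 21878 genes and were found in it. FPKM (fragments mapped to a gene, scaled to its transcript length and to the total of the library) was measured by RNA-seq in alveolar type 2 (AT2) cells sorted from the lungs of C57BL/6 mice, in 4 groups of 3 samples. AT2-PBS cells came from mice labelled wild type and given PBS, and AT2-BLM cells from mice labelled wild type and given bleomycin (BLM), which injures the alveolar epithelium, at 2 U/kg into the trachea and studied at day 14. Atg5-/- AT2-PBS and Atg5-/- AT2-BLM cells came from mice labelled Atg5-/- with the same 2 treatments. The RNA-seq methods give the BLM-treated mice of these as Nkx2.1 Cre;Atg5 f/f and do not list the PBS-treated ones. Nkx2.1, a transcription factor gene of the whole lung epithelium and not of AT2 cells alone, drives the Cre that removes Atg5. Atg5 is needed to form autophagosomes. The study gives the controls of both treatments as Atg5 f/f mice in its results and as wild type in its methods. The mice used for bleomycin were 8 to 12 weeks old. Cells were gated as EpCAM+ and negative for CD31, CD34, CD45, CD24 and Sca-1. Nothing says whether the 3 samples of a group came from separate animals, so the p-values measure the spread between these samples only.

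Pulmonary surfactant is a film of phospholipid and protein that lowers surface tension at the air-liquid interface of the alveolus. AT2 cells load its lipid, with the small hydrophobic proteins SP-B and SP-C, into lamellar bodies, which are lysosome-related organelles, and release it by exocytosis. The large collagen-like proteins SP-A and SP-D bind microbes and take part in surfactant turnover and lung defence. Surfactant lipid and protein are in part degraded in lysosomes, the same compartment that autophagy feeds.

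The promoters of the surfactant genes are known targets of NKX2-1, the lung lineage factor, and of the FOXA factors. RefSeq promoter windows (GRCm38.p6) matched 6 of the 10 members, Sftpa1, Sftpb, Abca3, Lamp3, Slc34a2 and Lyz2, and the 250 bases before the start site were searched on both strands for the letters CTCAAG (core of NKX2-1 sites) and TGTTTAC (core of FOXA sites), which do not overlap each other in these windows. CTCAAG was found in 2 of the 6 and in 13.3% of all 32851 windows of the same length, and TGTTTAC in 1 of the 6 and in 3.17% of all windows. The 3 windows with a match are shown 5′ to 3′ on the strand of the gene, with the matched letters in capitals, because 2 of these genes, Sftpb and Lamp3, were called in a comparison below and Sftpa1 was the member most abundant after Lyz2. The windows lie at chr6:72304360-72304609 (plus strand) for Sftpb, chr14:41131538-41131787 (plus strand) for Sftpa1 and chr16:19706366-19706615 (minus strand) for Lamp3.
Sftpb: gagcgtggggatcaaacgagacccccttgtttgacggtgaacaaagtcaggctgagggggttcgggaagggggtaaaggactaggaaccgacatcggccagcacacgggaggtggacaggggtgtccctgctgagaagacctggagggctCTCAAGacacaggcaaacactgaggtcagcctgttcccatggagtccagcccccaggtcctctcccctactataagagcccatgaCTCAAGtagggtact
Sftpa1: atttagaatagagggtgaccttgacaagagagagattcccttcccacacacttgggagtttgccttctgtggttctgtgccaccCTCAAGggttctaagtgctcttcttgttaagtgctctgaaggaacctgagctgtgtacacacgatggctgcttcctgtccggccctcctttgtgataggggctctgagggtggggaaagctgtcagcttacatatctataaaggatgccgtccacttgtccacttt
Lamp3: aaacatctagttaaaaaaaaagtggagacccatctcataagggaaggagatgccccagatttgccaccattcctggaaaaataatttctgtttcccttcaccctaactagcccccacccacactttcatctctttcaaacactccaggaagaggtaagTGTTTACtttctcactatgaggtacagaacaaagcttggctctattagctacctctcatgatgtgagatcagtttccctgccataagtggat
In Sftpb the letters begin 100 and 15 bases before the start site, in Sftpa1 166 bases before it and in Lamp3 92 bases before it. These are matches of letters, not measured binding.

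Several facts about the samples bear on these genes. Atg5 was listed at 6.01 to 12.5 FPKM in AT2-PBS, 9.97 to 11.1 in AT2-BLM, 6.72 to 10.1 in Atg5-/- AT2-PBS and 8.37 to 8.84 in Atg5-/- AT2-BLM, so whole-gene FPKM did not mark the deletion and the genotype is that of the labels. The methods state male mice, but the summed FPKM of 4 Y-linked genes was above 10 in 5 samples and under 1 in the other 7, among them all Atg5-/- AT2-PBS samples. The 5 were AT2-PBS replicates 2 and 3, AT2-BLM replicate 3 and Atg5-/- AT2-BLM replicates 2 and 3. Transcripts of other cells were present in Atg5-/- AT2-PBS. The 17 leukocyte and macrophage genes other than Lyz1 summed to 1948 to 2141 FPKM there, 26.7 to 111 in AT2-PBS, 124 to 254 in AT2-BLM and 89.1 to 441 in Atg5-/- AT2-BLM, and 17 of the 18 genes on that list were called higher than in AT2-PBS. Ptprc (CD45), against which the cells had been gated, was at 7.54 to 8.46 FPKM in Atg5-/- AT2-PBS and at 0.0119 to 0.621 in AT2-PBS. The club and ciliated cell list summed to 23472 to 85109 FPKM in Atg5-/- AT2-PBS against 5037 to 11851 in AT2-PBS, the neutrophil list to 444 to 1685 against 13.6 to 112, the fibroblast list to 89.7 to 101 against 3.49 to 12.8, and a liver list to 2085 to 3313 against 250 to 815. A list of 5 islet genes summed to 3226 FPKM in AT2-PBS replicate 1. It summed to 3216 and 3218 in Atg5-/- AT2-PBS replicates 1 and 2, and to 4.09 at most in every other sample. Epithelial Cdh1 stood at 82.1 to 109 FPKM in Atg5-/- AT2-PBS and at 105 to 138 in AT2-PBS. Epcam, for which the cells had been gated, stood at 102 to 110 FPKM in Atg5-/- AT2-PBS and at 130 to 179 in AT2-PBS. Of 5 epithelial genes tested, 2 were called lower in Atg5-/- AT2-PBS (Epcam, Krt8) and 0 higher, beside 5.16% and 14.1% of all genes tested. AT2-BLM replicate 3 stood apart from the other AT2-BLM samples with Krt8 at 1266 FPKM against 565 and 566. It was also the only AT2-BLM sample with a Y-linked sum above 10 FPKM. In bulk samples, fewer AT2 cells and less RNA per AT2 cell cannot be told apart.

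**Figure D1:**
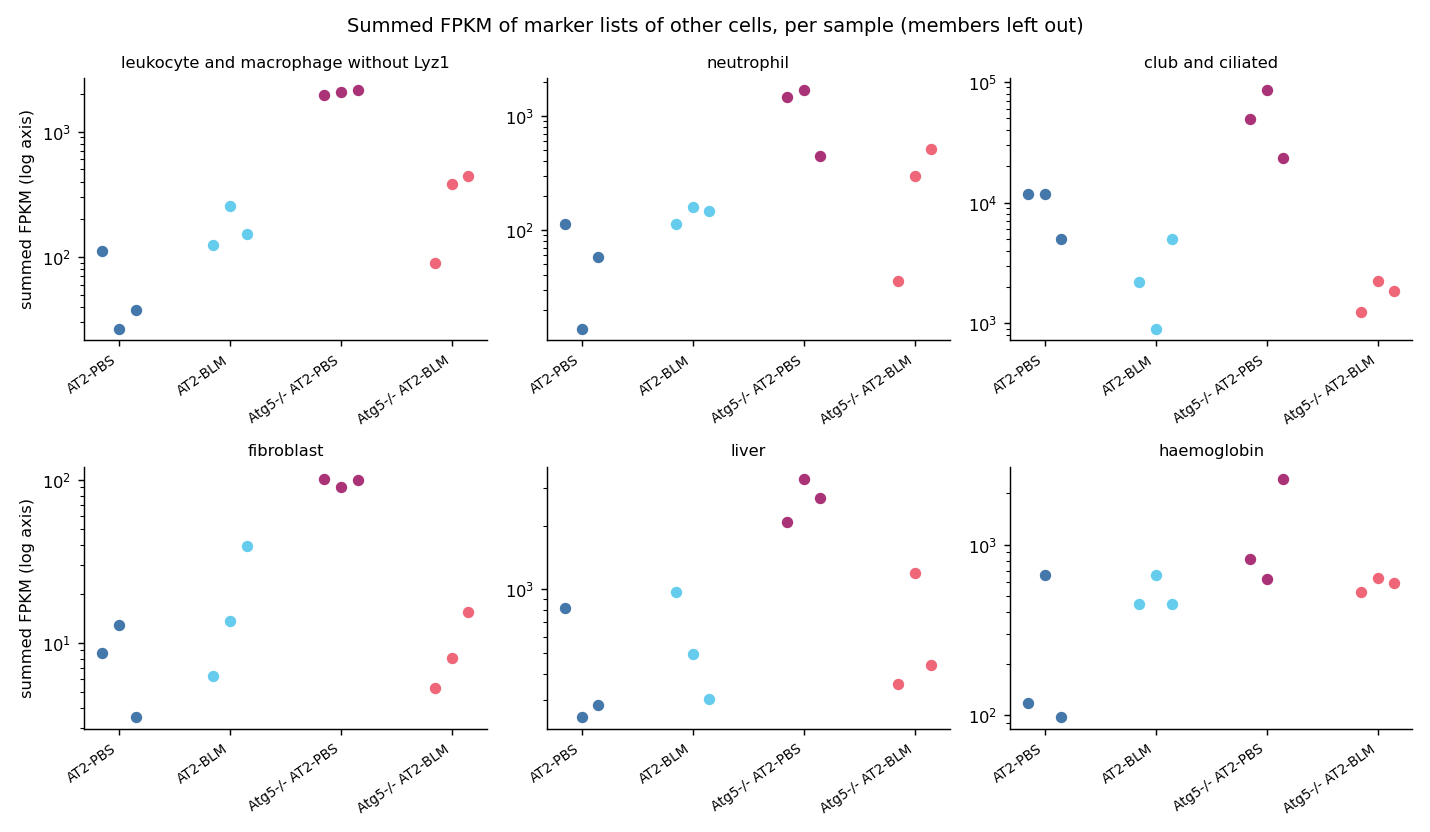
Each point is 1 sample, and the y axis (log scale) is the summed FPKM of a marker list of other cells, with the members left out. The 3 Atg5-/- AT2-PBS samples lie above every other sample on the leukocyte and macrophage (without Lyz1), club and ciliated, fibroblast and liver lists, and AT2-PBS replicates 1 and 3 lie lowest on the haemoglobin list.

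Sftpc, on chromosome 14 from 70920748 to 70923888 of mm9, encodes SP-C, the hydrophobic protein made by AT2 cells alone and the usual marker of the type. It was listed at exactly 0 FPKM in 11 of the 12 samples and at 112570 FPKM in AT2-BLM replicate 2, where it made up 20.5% of the summed FPKM. Among the 100 genes of highest median FPKM, 0 were listed at 0 in any sample, and of the 68 genes that reached 1000 FPKM in any sample only Sftpc, Ins2 and Bpifa1 were listed at 0 anywhere. Lgi3 and Bmp1, genes of the same stretch of chromosome 14, were listed at 223 to 612 and 3.80 to 9.46 FPKM, and neither was at 0 in any sample. Of 10 genes that every cell uses, none was at 0, but Gapdh stood between 0.298 and 1.08 FPKM in all samples, where Actb stood between 1741 and 5076. A value of 0 for Sftpc beside full levels of the other surfactant genes is therefore given as a listed value and not as a level of expression, and no mean, fold change or test was computed for it. Sftpc also failed the filter on low values (1 FPKM in 3 samples or more), which the other 9 members passed. Without Sftpc, FPKM summed to between 390141 and 513380 over the samples, with AT2-BLM replicate 2 inside that range.

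The other 9 members were among the most abundant transcripts of the table. By median FPKM over the 12 samples, Lyz2 ranked 1, Sftpa1 ranked 2 and Sftpb ranked 3 of all genes, followed by Sftpd at 7, Napsa at 14, Slc34a2 at 26, Ctsh at 38, Lamp3 at 89 and Abca3 at 540. Together they made up 15.4% to 21.3% of the FPKM sum without Sftpc in AT2-PBS, 9.68% to 15.5% in AT2-BLM, 12.3% to 14.6% in Atg5-/- AT2-PBS and 14.6% to 17.1% in Atg5-/- AT2-BLM. AT2-BLM replicate 3 was the lowest of all samples. FPKM is scaled to transcript length, which allows a rough order of levels between genes. Given the listed values of Sftpc and Gapdh above, that order is not assured for every gene. Within each group, Lyz2 came first and Slc34a2, Ctsh, Lamp3 and Abca3 last in that order, with Ctsh and Lamp3 overlapping in AT2-PBS and Slc34a2 and Ctsh overlapping in AT2-BLM. The upper places were not as settled. Sftpb ranked after Napsa in AT2-PBS, with overlapping ranges, and before Sftpa1 in AT2-BLM, where the ranges of Lyz2, Sftpb, Sftpa1 and Sftpd each overlapped the next.

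**Figure D2:**
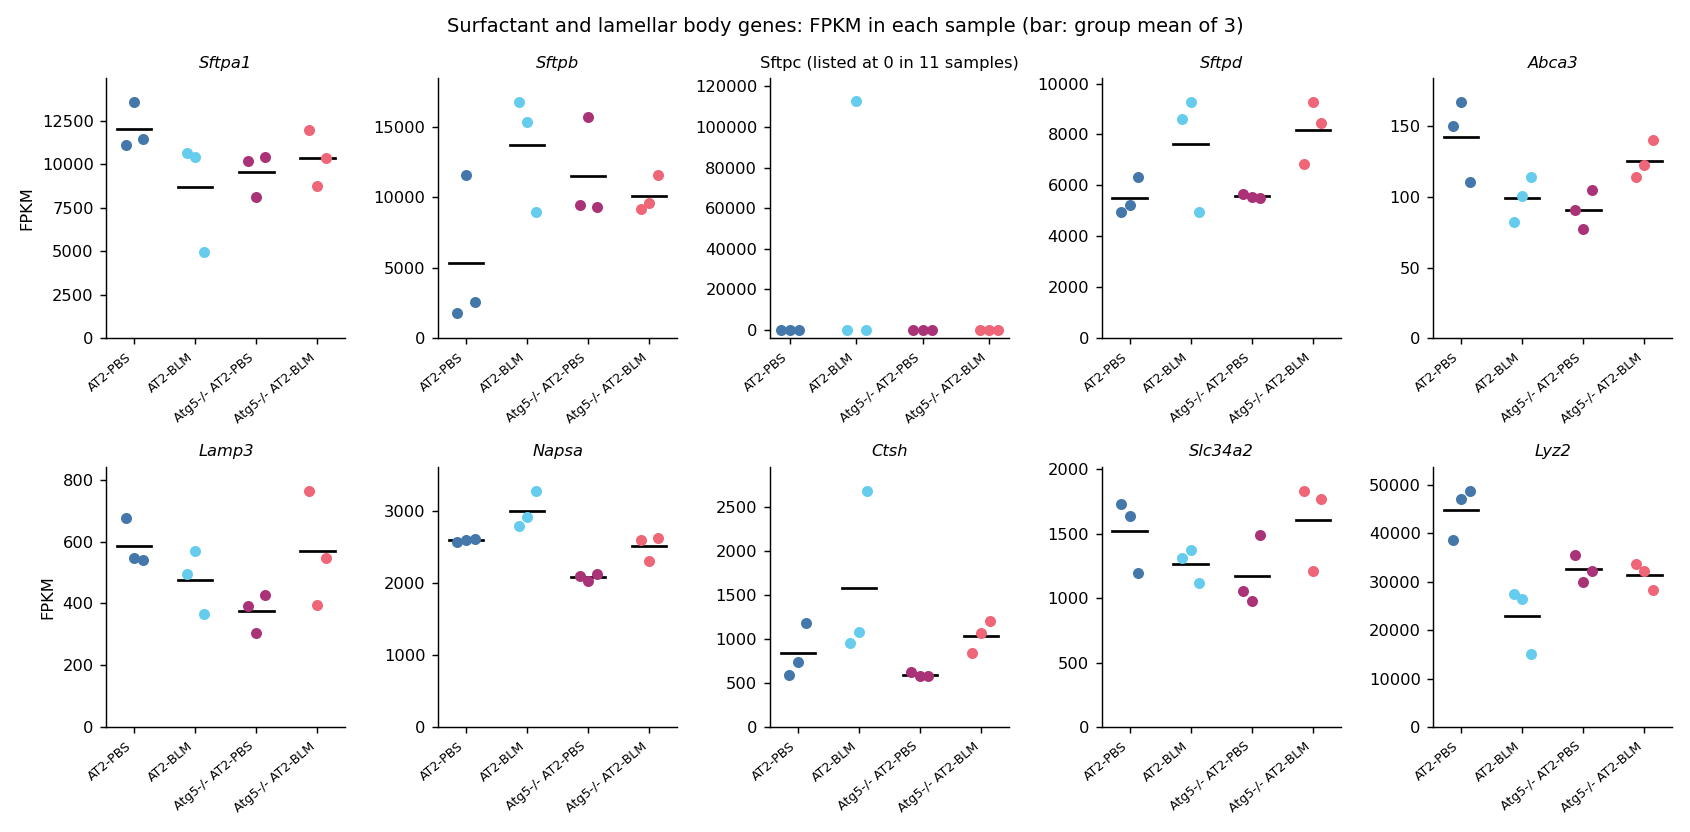
Each panel is 1 of the 10 members, each point 1 sample and each bar the mean of 3 samples, with FPKM on a linear axis. Sftpb is low in 2 of the 3 AT2-PBS samples, Lyz2 is lower in every AT2-BLM sample than in every AT2-PBS sample, and Sftpc is listed at 0 in 11 samples.

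Changes were tested with limma on log2(FPKM + 1) in a single fit of the 12 samples, over 10675 genes that reached 1 FPKM in 3 samples or more. Called genes met the study's criterion, a fold change of 1.4 or more with p below 0.05 before adjustment. The Benjamini-Hochberg adjusted p over all 10675 genes is given beside it. With 3 samples a group, the smallest two-sided p of an exact permutation test is 0.1, so none is given for single genes. Between AT2-BLM and AT2-PBS, 4 of the 9 members were called, 2 higher (Sftpb, Ctsh) and 2 lower (Lyz2, Abca3), where 28.4% of all genes tested were called, 20.6% higher and 7.77% lower. An adjusted p under 0.05 was found for 2 members, Sftpb and Lyz2, and for 17.8% of all genes tested. Group ranges did not overlap for 3 members, Sftpa1, Napsa and Lyz2, and for 40.2% of all genes tested. The median log2 change was -0.25 over the 9 members and 0.17 over all genes tested. Of 10 other genes that AT2 cells are known for, 4 were called lower and 0 higher, beside 7.77% and 20.6% of all genes tested. Markers of other cells also differed. Of those tested, 8 of 18 leukocyte and macrophage, 2 of 5 neutrophil and 6 of 8 liver genes were called higher. Of the leukocyte and macrophage genes 1 was called lower, as were 5 of 6 club and ciliated genes, and 0 of 5 fibroblast genes were called. The club and ciliated list summed to 905 to 4986 FPKM in AT2-BLM. The part of those cells in the member changes was not tested. The groups AT2-PBS and AT2-BLM also enter other comparisons below, so the comparisons share samples.

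Sftpb, on chromosome 6 from 72254619 to 72262926 of mm9, encodes SP-B, which is needed for lamellar body formation and for a working surfactant film. Levels in the 3 AT2-PBS samples were 1777, 11572 and 2590 FPKM, against 16778, 15336 and 8984 FPKM in AT2-BLM. For Atg5-/- AT2-PBS they were 9454, 15714 and 9349 FPKM, and for Atg5-/- AT2-BLM 9157, 9580 and 11606 FPKM. AT2-PBS replicates 1 and 3 were below all other samples, whereas AT2-PBS replicate 2 lay within the range of AT2-BLM, and from 3 samples of 1 group the SD (5435) was as large as the mean (5313). With BLM, Sftpb was higher than in AT2-PBS by 1.81 on the log2 scale (SE 0.56, adjusted p = 0.0436), and Atg5-/- AT2-PBS was higher than AT2-PBS by 1.57 (SE 0.56, adjusted p = 0.108). Against AT2-PBS replicate 2 alone, AT2-BLM differed by 0.19 on the log2 scale and Atg5-/- AT2-PBS by -0.05. These values leave out the 2 low samples, chosen for their Sftpb level, so they describe the remaining sample and test nothing. The second call was also lost when any 1 of 3 samples was left out, replicates 1 (1.03) and 3 of AT2-PBS and replicate 2 of Atg5-/- AT2-PBS. The same 2 samples had the lowest summed FPKM of 4 haemoglobin genes (117 and 96.7 against 445 to 2430 in all others), and whether that has a part in the Sftpb values was not tested. Within the Atg5-/- cells the log2 change with BLM was -0.15 (95% interval -1.37 to 1.07), and between Atg5-/- AT2-BLM and AT2-BLM it was -0.39 (-1.61 to 0.82). Neither was called, and the intervals leave room for changes of more than 2-fold.

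Sftpa1, on chromosome 14 from 41945071 to 41949741 of mm9, encodes SP-A, the most abundant surfactant protein by weight. The AT2-PBS samples held 11105, 13567 and 11468 FPKM, those of AT2-BLM 10668, 10436 and 4967 FPKM. The Atg5-/- AT2-PBS samples held 10202, 8099 and 10390 FPKM, those of Atg5-/- AT2-BLM 11980, 8753 and 10376 FPKM. All AT2-PBS samples lay above all AT2-BLM and all Atg5-/- AT2-PBS samples, by small margins except for AT2-BLM replicate 3, which was well under the other AT2-BLM samples. The log2 change with BLM was -0.55 (SE 0.31, adjusted p = 0.227) and with Atg5 loss under PBS -0.34 (SE 0.31, adjusted p = 0.582), and neither was called. Without AT2-BLM replicate 3 the change with BLM was -0.19, and with quantile normalization it was -0.831 and was called.

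Sftpd, on chromosome 14 from 41985501 to 41998487 and 35759 bases from Sftpa1, encodes SP-D, a collectin that binds microbial sugars. After PBS the wild type samples held 4939, 5250 and 6323 FPKM and the Atg5-/- samples 5659, 5539 and 5514 FPKM. After BLM the wild type samples held 8600, 9272 and 4952 FPKM and the Atg5-/- samples 6854, 9270 and 8461 FPKM. AT2-BLM replicate 3 fell within the PBS range, while the other 5 BLM samples lay above all 6 PBS samples. Neither change with BLM was called, at 0.42 on the log2 scale in wild type (SE 0.26, adjusted p = 0.271) and 0.55 in Atg5-/- cells (SE 0.26, adjusted p = 0.248). Without AT2-BLM replicate 3 the wild type change was 0.71 and was called, and with quantile normalization it was 0.0825. In Atg5-/- cells it was called with quantile normalization (0.829), in the fit of the compared groups alone (0.546) and without Atg5-/- AT2-BLM replicate 1 (0.67), and was 0.0831 with scaling to Cdh1. The log2 difference between Atg5-/- AT2-PBS and AT2-PBS was 0.03, with a 95% interval from -0.54 to 0.59.

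Napsa, on chromosome 7 from 51827802 to 51842232, encodes napsin A, an aspartic protease of the lamellar body that cleaves the precursors of SP-B and SP-C. FPKM was 2581, 2598 and 2615 across AT2-PBS, and 2792, 2923 and 3289 across AT2-BLM. It was 2098, 2032 and 2136 across Atg5-/- AT2-PBS, and 2598, 2316 and 2627 across Atg5-/- AT2-BLM. It had the tightest replicates of the members in AT2-PBS, with an SD of 0.661% of the mean, and its groups did not overlap in any of the 4 comparisons of 2 groups. The changes were small and none was called. The log2 change was 0.20 with BLM in wild type (SE 0.16, adjusted p = 0.373) and 0.26 in Atg5-/- cells (SE 0.16, adjusted p = 0.370), -0.31 with Atg5 loss under PBS (SE 0.16, adjusted p = 0.268) and -0.25 with Atg5 loss under BLM (SE 0.16, adjusted p = 0.720). The first of these was negative with quantile normalization (-0.165) and with scaling to Cdh1 (-0.0346), the second also (-0.0082 and -0.198), and the change under PBS was positive with scaling to Cdh1 (0.0809).

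Ctsh, on chromosome 9 from 89948990 to 89970927, encodes cathepsin H, a lysosomal aminopeptidase that trims pro-SP-B and pro-SP-C. Levels in the 3 AT2-PBS samples were 587, 736 and 1187 FPKM, against 960, 1085 and 2684 FPKM in AT2-BLM. For Atg5-/- AT2-PBS they were 619, 583 and 576 FPKM, and for Atg5-/- AT2-BLM 840, 1071 and 1202 FPKM. AT2-BLM replicate 3 stood far above all other samples, AT2-PBS replicate 3 reached the BLM range, and every Atg5-/- AT2-BLM sample lay above every Atg5-/- AT2-PBS sample. Ctsh was called higher with BLM in wild type, by 0.81 on the log2 scale (SE 0.35, adjusted p = 0.129), and in Atg5-/- cells, by 0.79 (SE 0.35, adjusted p = 0.216), and passed the adjustment in neither. Without AT2-BLM replicate 3 the first change was 0.35 and was not called, nor was it without AT2-PBS replicate 1 (0.59) or replicate 2 (0.75), or under quantile normalization (0.645), median-ratio scaling (0.638) or scaling to Cdh1 (0.575). The second was not called without any 1 of Atg5-/- AT2-PBS replicates 1 to 3 or Atg5-/- AT2-BLM replicates 2 and 3, with values from 0.68 to 0.82, nor with scaling to Cdh1 (0.33) or with Y-linked expression as a covariate (0.237). The difference of the 2 changes was -0.02 (95% interval -1.11 to 1.07).

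Abca3, on chromosome 17 from 24488895 to 24547146, encodes the ATP-driven lipid transporter of the lamellar body membrane. The AT2-PBS samples held 150, 167 and 110 FPKM, those of AT2-BLM 82.3, 100.5 and 114 FPKM. The Atg5-/- AT2-PBS samples held 90.9, 77.4 and 105 FPKM, those of Atg5-/- AT2-BLM 114, 122 and 140 FPKM. The Atg5-/- AT2-PBS samples lay below all AT2-PBS and all Atg5-/- AT2-BLM samples, and the lowest Atg5-/- AT2-BLM sample (114.2) lay barely above the highest AT2-BLM sample (114.0). Abca3 was lower in Atg5-/- AT2-PBS than in AT2-PBS by a log2 change of -0.63 (SE 0.19, adjusted p = 0.0492), and the call was lost with scaling to Cdh1 (-0.238). It was also called lower with BLM in wild type, by -0.51 (SE 0.19, adjusted p = 0.0771), but not without AT2-PBS replicate 1 (-0.46), AT2-PBS replicate 2 (-0.39) or AT2-BLM replicate 1 (-0.39). In Atg5-/- cells the log2 change with BLM was 0.47 (SE 0.19, unadjusted p = 0.0279, adjusted p = 0.165), a fold of 1.38 and so under the 1.4 asked for. This change was 0.00913 with scaling to Cdh1.

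Lamp3, on chromosome 16 from 19653474 to 19706458, encodes DC-LAMP, a glycoprotein of the lamellar body membrane that activated dendritic cells also carry. FPKM was 677, 547 and 539 across AT2-PBS, and 495, 570 and 365 across AT2-BLM. It was 390, 304 and 428 across Atg5-/- AT2-PBS, and 765, 395 and 547 across Atg5-/- AT2-BLM. Every Atg5-/- AT2-PBS sample lay below every AT2-PBS sample, while Atg5-/- AT2-BLM spread from within the Atg5-/- AT2-PBS range to the highest value of all 12 samples. Lamp3 was called lower in Atg5-/- AT2-PBS than in AT2-PBS, by -0.66 on the log2 scale (SE 0.25, adjusted p = 0.128), and the call was lost without AT2-PBS replicate 1 (-0.55), without Atg5-/- AT2-PBS replicate 2 (-0.52) and with scaling to Cdh1 (-0.262). It was called higher in Atg5-/- AT2-BLM than in Atg5-/- AT2-PBS, by 0.57 (SE 0.25, adjusted p = 0.204), and the call was lost without Atg5-/- AT2-BLM replicate 1 (0.33) or 3 (0.57) and without Atg5-/- AT2-PBS replicate 1 (0.60) or 2 (0.42). It was lost too with scaling to Cdh1 (0.104), quantile normalization (0.612), median-ratio scaling (0.488), no filter on low values and the fit of the compared groups alone.

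Slc34a2, on chromosome 5 from 53429321 to 53462903, encodes NaPi-IIb, the sodium-phosphate cotransporter of the apical AT2 membrane that takes up phosphate set free from surfactant phospholipid. Levels in the 3 AT2-PBS samples were 1727, 1638 and 1197 FPKM, against 1309, 1374 and 1116 FPKM in AT2-BLM. For Atg5-/- AT2-PBS they were 1054, 979 and 1492 FPKM, and for Atg5-/- AT2-BLM 1833, 1213 and 1769 FPKM. All of these ranges overlapped, and no change was called. The largest log2 change between 2 groups was 0.45 with BLM in Atg5-/- cells (SE 0.23, adjusted p = 0.285), which was -0.0113 with scaling to Cdh1 and was called without Atg5-/- AT2-PBS replicate 3 (0.64) or Atg5-/- AT2-BLM replicate 2 (0.64). The change with Atg5 loss under PBS was -0.38 (SE 0.23, adjusted p = 0.377) and was called when replicate 3 of AT2-PBS (-0.54) or of Atg5-/- AT2-PBS (-0.56) was left out.

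Lyz2, on the minus strand of chromosome 10 from 116714390 to 116719377, encodes lysozyme M, an antibacterial enzyme that AT2 cells pack with surfactant and that macrophages and neutrophils also make. The AT2-PBS samples held 38563, 46993 and 48723 FPKM, those of AT2-BLM 27418, 26302 and 15122 FPKM. The Atg5-/- AT2-PBS samples held 35459, 29949 and 32158 FPKM, those of Atg5-/- AT2-BLM 33596, 32140 and 28328 FPKM. All AT2-PBS samples were above all others, and all AT2-BLM samples were below all others, with AT2-BLM replicate 3 lowest. With BLM in wild type, Lyz2 fell to 0.498 of its AT2-PBS level (log2 change -1.01, SE 0.31, adjusted p = 0.0427). The fall was called without each sample in turn, from -1.16 to -0.73, and was not called with quantile normalization (-0.461) or without the filter on low values (-1.01). In Atg5-/- cells the log2 change with BLM was -0.05 (95% interval -0.72 to 0.62), and with quantile normalization it was 0.921. The log2 difference with Atg5 loss was -0.46 under PBS (SE 0.31, adjusted p = 0.433) and 0.50 under BLM (SE 0.31, adjusted p = 0.720), neither of which was called. Lyz2 was lower in mean level in Atg5-/- AT2-PBS than in AT2-PBS, while the leukocyte and macrophage list without Lyz1 was higher. With Lyz1 that list summed to 3380 to 5333 FPKM against 2557 to 5194, and the part of those cells in the Lyz2 level was not tested.

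Lyz2 has a near copy, Lyz1, on the same strand from 116724852 to 116729924, 5474 bases away. Their coding sequences, both of 447 bases, were identical at 425 positions (95.1%), and 20.1% of all stretches of 50 bases in Lyz1 were also in Lyz2, so reads of the 2 genes can be divided between them with error. Coding bases 1 to 150 are shown from the GENCODE transcripts of mm9 because they hold 14 of the differences, which are in capitals.
Lyz1: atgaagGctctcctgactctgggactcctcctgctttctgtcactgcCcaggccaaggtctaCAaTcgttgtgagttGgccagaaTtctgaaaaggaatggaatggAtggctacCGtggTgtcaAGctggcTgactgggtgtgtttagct
Lyz2: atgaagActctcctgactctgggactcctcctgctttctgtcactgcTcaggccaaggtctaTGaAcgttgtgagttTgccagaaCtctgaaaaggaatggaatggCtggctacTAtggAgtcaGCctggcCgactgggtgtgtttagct
Lyz1 was listed at 2446 to 5168 FPKM in AT2-PBS, 862 to 3155 in AT2-BLM, 1315 to 3385 in Atg5-/- AT2-PBS and 698 to 3497 in Atg5-/- AT2-BLM, below Lyz2 in every sample. With the 2 genes summed, the calls for the 4 comparisons of 2 groups were those of Lyz2 alone, and the log2 change with BLM in wild type was -1.01. The interaction of Lyz2 described below was not called on the sum (0.938).

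**Figure D3:**
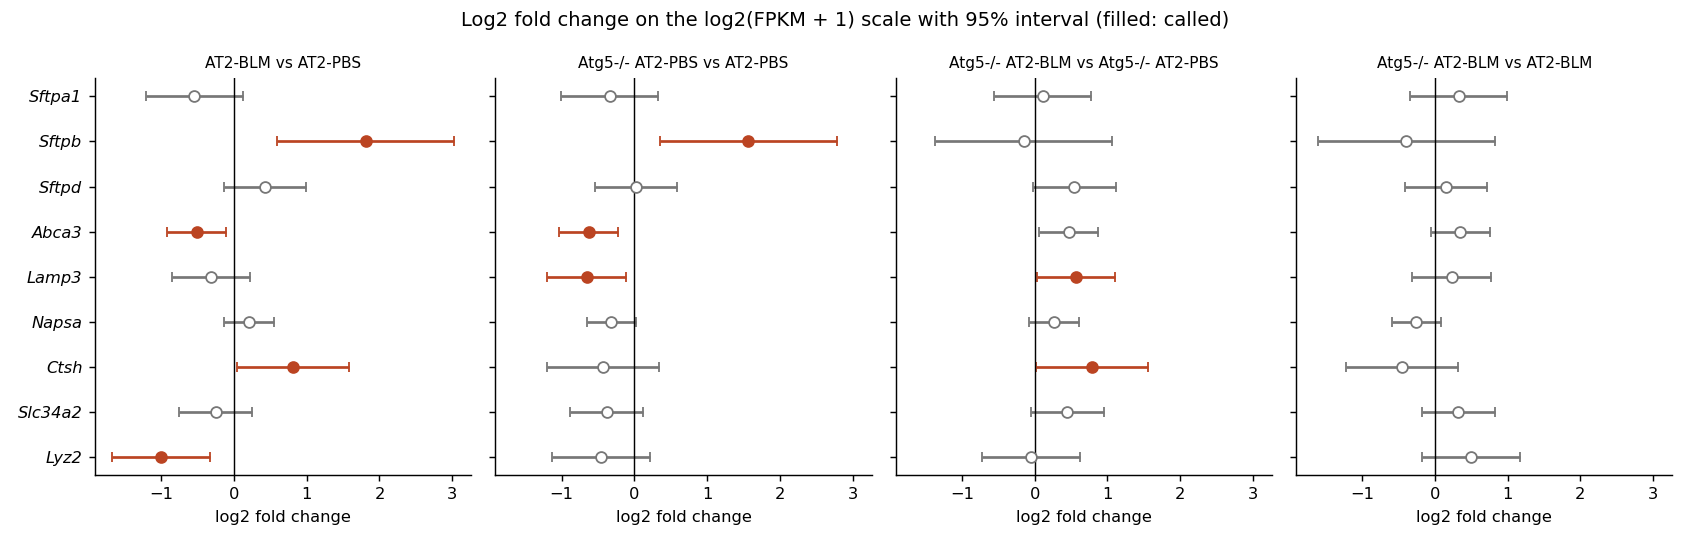
Log2 fold changes of the 9 tested members on the log2(FPKM + 1) scale in the 4 comparisons of 2 groups, with 95% intervals from limma, filled where the gene was called. Sftpb has the widest intervals, Napsa the narrowest, and the last panel, Atg5 loss under BLM, has no filled point.

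Between Atg5-/- AT2-PBS and AT2-PBS, 3 of the 9 members were called, 1 higher (Sftpb) and 2 lower (Abca3, Lamp3), where 19.3% of all genes tested were called, 14.1% higher and 5.16% lower. The adjusted p was under 0.05 for 1 member, Abca3, and for 11.2% of all genes. The ranges did not overlap for 5 members (Sftpa1, Abca3, Lamp3, Napsa and Lyz2, all lower in Atg5-/- AT2-PBS) and for 28.9% of all genes, and 7 of the 9 log2 changes were negative, with a median of -0.38 against 0.02 over all genes. With scaling to Cdh1, whose own levels are given above, the median of all genes moved to 0.34, Abca3 and Lamp3 lost their calls and Sftpa1 (0.0596), Napsa and Slc34a2 (0.0164) turned positive. Of the genes tested, 17 of 18 leukocyte and macrophage, 4 of 6 club and ciliated, 5 of 5 fibroblast and 7 of 8 liver genes were called higher and 0 lower, with Lyz1 (-0.65) and Tppp3 (-0.19) negative and not called. Their part in the lower member levels was not tested. Of the 10 other genes that AT2 cells are known for, 5 were called lower and 0 higher, beside 5.16% and 14.1% of all genes. Those with an adjusted p under 0.05 were Fasn (-0.97, SE 0.22, adjusted p = 0.0121), the fatty acid synthase that supplies surfactant lipid, Cxcl15 (-0.65, SE 0.18, adjusted p = 0.0310), a lung chemokine, and Lpcat1 (-0.61, SE 0.14, adjusted p = 0.0140), the acyltransferase that makes the main surfactant phospholipid.

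Within Atg5-/- cells, 2 of the 9 members were called between BLM and PBS, both higher (Lamp3, Ctsh), where 18.4% of all genes tested were called, 7.66% higher and 10.7% lower. None had an adjusted p under 0.05 (8.67% of all genes did), and the ranges did not overlap for 4 members, Sftpd, Abca3, Napsa and Ctsh, each higher with BLM, and for 24.9% of all genes. The median log2 change of the members was 0.45 against 0.06 over all genes. Of the 10 other genes that AT2 cells are known for, 5 were called higher and 0 lower, with a median of 0.44. Fasn (1.03, SE 0.22, adjusted p = 0.0131) was the 1 of them with an adjusted p under 0.05. This comparison holds the same Atg5-/- AT2-PBS samples as the one before, with the marker values given there. With scaling to Cdh1 the median of all genes moved to -0.32, and 0 members were called. With quantile normalization 1 member was called, and with median-ratio scaling or without the filter on low values 0 were called.

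Under BLM, Atg5-/- cells against wild type gave 0 calls among the 9 members by limma, and 0 had an unadjusted p under 0.05. Of all genes tested 5.16% were called, 2.04% higher and 3.12% lower, and 0.00937%, which is 1 gene, had an adjusted p under 0.05. Ranges did not overlap for 3 members, Abca3 and Lyz2 higher and Napsa lower with Atg5 loss, and for 13.4% of all genes. The log2 changes ran from -0.46 for Ctsh (95% interval -1.23 to 0.32) to 0.50 for Lyz2 (-0.17 to 1.17), with a median of 0.23 against -0.05 over all genes. The intervals of all 9 members held 0. Each interval also held a 1.4-fold change in at least 1 direction, so a difference of that size was not excluded. Abca3 was called higher with Atg5 loss when values were scaled to Cdh1 (0.52). Without AT2-BLM replicate 3 the values were -0.04 for Sftpa1, -0.14 for Sftpd and 0.01 for Ctsh, and without Atg5-/- AT2-BLM replicate 1 the value was -0.01 for Lamp3. Of the 10 other genes that AT2 cells are known for, 2 were called higher and 0 lower, beside 2.04% and 3.12% of all genes, and 0 passed the adjustment.

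The change with BLM was set against genotype by the interaction term, the log2 change with BLM in Atg5-/- cells minus that in wild type. It was called for 4 of the 9 members, 3 positive (Abca3, Lamp3, Lyz2) and 1 negative (Sftpb), where 20.2% of all genes tested were called, 5.02% positive and 15.2% negative. An adjusted p under 0.05 was found for 1 member, Abca3, and for 7.89% of all genes. For Abca3 the difference was 0.98 (SE 0.26, adjusted p = 0.0417). The log2 change with BLM was -0.51 in wild type, which was called, and 0.47 in Atg5-/- cells, which was not and was 0.00913 with scaling to Cdh1. By p before adjustment, the difference was still called with that scaling (0.758) and without each of the 12 samples in turn, from 0.85 to 1.15. For Lamp3 it was 0.88 (SE 0.35, adjusted p = 0.165), for Lyz2 0.95 (SE 0.44, adjusted p = 0.241) and for Sftpb -1.96 (SE 0.79, adjusted p = 0.174). These 3 calls were less settled. Lyz2 kept its call without 2 of the 12 samples only, Lamp3 lost it without AT2-PBS replicate 1, AT2-BLM replicate 3, Atg5-/- AT2-PBS replicate 2 or Atg5-/- AT2-BLM replicate 1 (0.65 to 0.78), and Sftpb lost it when any 1 of 5 samples was left out, replicates 1 (-1.42) and 3 of AT2-PBS, 1 and 2 of AT2-BLM and 2 of Atg5-/- AT2-PBS. With quantile normalization 6 members were called, all positive. Sftpb was then not called (-1.46), and Sftpa1 (1.13), Sftpd (0.746) and Slc34a2 (0.95) were. Slc34a2 was at 0.70 (SE 0.33, adjusted p = 0.248) and was called also with a pseudocount of 0.1 (0.703) and with median-ratio scaling (0.801). Lamp3 (0.661) and Lyz2 (0.729) lost their calls with scaling to Cdh1. The median of the 9 members was 0.66 against -0.09 over all genes. Of the 10 other genes that AT2 cells are known for, 5 were called positive and 0 negative, with a median of 0.70. Fasn (1.53, SE 0.32, adjusted p = 0.0130) and Lpcat1, given below, had an adjusted p under 0.05. The term contains the Atg5-/- AT2-PBS samples, whose sums of the leukocyte list without Lyz1 and of the club, fibroblast and liver lists were highest, and the part of those cells in it was not tested.

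**Figure D4:**
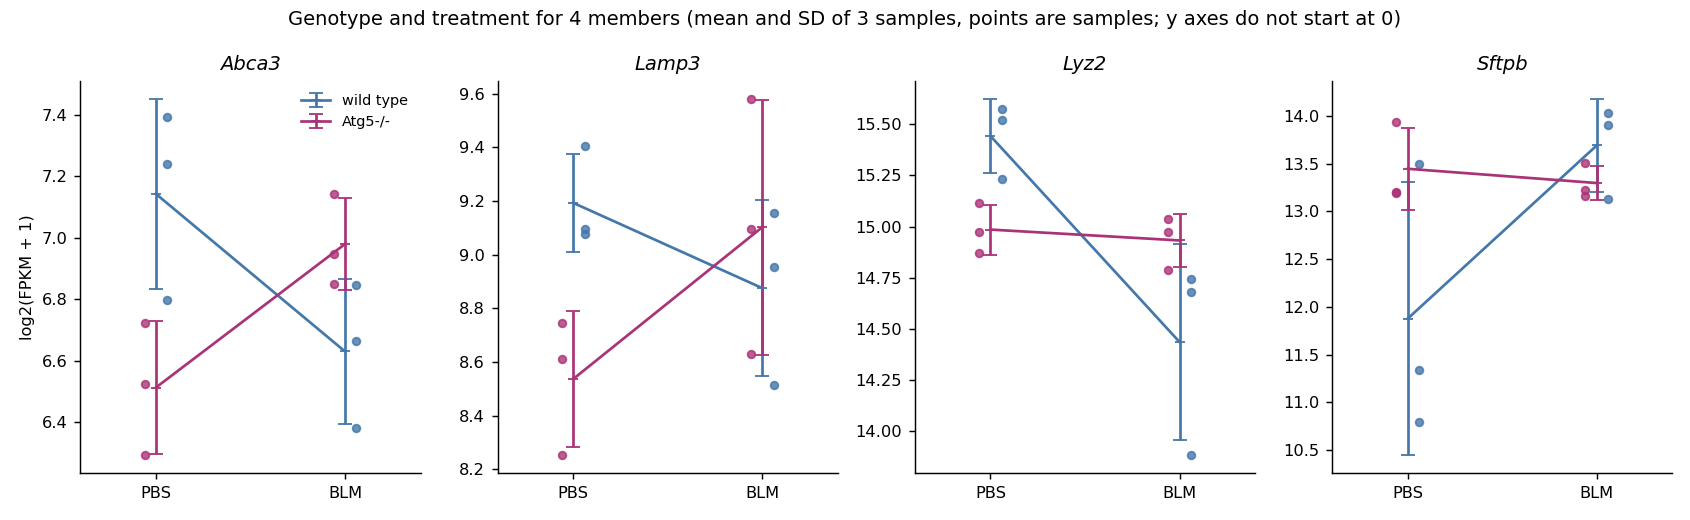
Mean and SD of log2(FPKM + 1) over 3 samples with PBS and BLM for wild type and Atg5-/- cells, with samples as points and y axes that do not start at 0. The lines cross for Abca3, Lamp3, Lyz2 and Sftpb, and the wild type PBS mean of Sftpb lies between 2 low samples and 1 high one.

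Genes of surfactant processing and secretion other than the members (30 genes, 28 tested) did not share 1 direction. Between AT2-BLM and AT2-PBS, 8 were called higher and 1 lower, beside 20.6% and 7.77% of all genes, and 7 had an adjusted p under 0.05. The 4 largest of these were P2ry2 (1.43, SE 0.23, adjusted p = 0.0030), the ATP receptor that triggers surfactant release, Prdx6 (1.27, SE 0.25, adjusted p = 0.0068), an enzyme with phospholipase activity that recycles surfactant lipid, Hps6 (1.19, SE 0.26, adjusted p = 0.0113), a subunit of a complex that forms lysosome-related organelles, and Gprc5a (1.13, SE 0.29, adjusted p = 0.0209), a receptor of lung epithelium. The 1 called lower was Lpcat1 (-0.49, SE 0.14, adjusted p = 0.0370). Between Atg5-/- AT2-PBS and AT2-PBS, 4 were called higher and 1 lower (14.1% and 5.16% of all genes), and those with an adjusted p under 0.05 were Pla2g15 (2.12, SE 0.21, adjusted p = 5.7e-05), the lysosomal phospholipase that is rich in alveolar macrophages, Ctsd (1.30, SE 0.17, adjusted p = 3.32e-04), a lysosomal protease of many cells, and Lpcat1. Between Atg5-/- AT2-BLM and Atg5-/- AT2-PBS, 3 were called higher and 3 lower (7.66% and 10.7% of all genes), and Pla2g15 (-1.46, SE 0.21, adjusted p = 0.0012), P2ry2 (0.92, SE 0.23, adjusted p = 0.0289) and Ctsd (-0.69, SE 0.17, adjusted p = 0.0269) passed the adjustment. Between Atg5-/- AT2-BLM and AT2-BLM, 1 was called higher and 2 lower (2.04% and 3.12% of all genes), with 0 past the adjustment. For the interaction, 3 were called positive and 5 negative (5.02% and 15.2% of all genes), and those past the adjustment were Pla2g15 (-1.96, SE 0.30, adjusted p = 0.0032), Ctsd (-1.69, SE 0.25, adjusted p = 0.0024), Prdx6 (-1.34, SE 0.35, adjusted p = 0.0368) and Lpcat1 (0.77, SE 0.20, adjusted p = 0.0392).

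Of 15 transcription factors linked to surfactant genes, 13 were tested. With BLM in wild type 6 were called lower and 0 higher, beside 7.77% and 20.6% of all genes, of which Klf5 (-0.62, SE 0.12, adjusted p = 0.0075), an epithelial zinc finger factor, passed the adjustment, and with Atg5 loss under PBS 4 were called lower and 2 higher (5.16% and 14.1% of all genes). In the latter, Srebf1 (-0.65, SE 0.17, adjusted p = 0.0205), the regulator of lipid synthesis genes, was lower, and Tcf7l2 (1.24, SE 0.24, adjusted p = 0.0035) and Rara (0.86, SE 0.18, adjusted p = 0.0071) were higher. Tcf7l2 and Rara were low, at 0.843 to 6.56 and 0.938 to 3.70 FPKM over all samples. The part of the other cells' transcripts in Atg5-/- AT2-PBS in these changes was not tested. With BLM in Atg5-/- cells 2 were called in each direction (7.66% of all genes higher, 10.7% lower), and Tcf7l2 (-1.45, SE 0.24, adjusted p = 0.0026) passed the adjustment. Nkx2-1 itself was at 42.1 to 57.4 FPKM in AT2-PBS, 53.8 to 65.4 in AT2-BLM, 29.7 to 66.8 in Atg5-/- AT2-PBS and 65.5 to 78.0 in Atg5-/- AT2-BLM. It was called in 1 comparison, Atg5-/- AT2-BLM against Atg5-/- AT2-PBS, by 0.70 on the log2 scale (SE 0.24, adjusted p = 0.0950). Of 8 markers of AT1 cells, the flat cells into which AT2 cells differentiate, 5 were called higher with BLM in wild type (20.6% of all genes) and 7 in Atg5-/- cells (7.66% of all genes), with 0 lower in either. Pdpn (3.26, SE 0.46, adjusted p = 0.0013) and Hopx (2.10, SE 0.28, adjusted p = 0.0011) rose most in wild type. Akap5, at 0.210 to 8.28 FPKM over all samples, also passed the adjustment there (1.72, SE 0.31, adjusted p = 0.0050). In Atg5-/- cells Akap5 (1.28, SE 0.31, adjusted p = 0.0240) and Emp2 (0.83, SE 0.21, adjusted p = 0.0303) passed it.

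The 9 members did not vary as 1 block. Across the 12 samples, as a description in which groups, depth and cell mixture are shared by all genes, log2 values of Lamp3 and Slc34a2 had a Pearson r of 0.85, of Sftpa1 and Lyz2 0.84, of Napsa and Ctsh 0.79 and of Abca3 and Slc34a2 0.69. At the other end, Ctsh and Lyz2 had -0.64 and Ctsh and Sftpa1 -0.62. AT2-BLM replicate 3 was the lowest sample in Lyz2 and Sftpa1 and the highest in Ctsh. Sftpb was negatively correlated with Lyz2 (-0.43), Abca3 (-0.43) and Lamp3 (-0.39). The genes whose pattern was most like the mean of the 9 z-scored members over the 12 samples were Slc1a3 (r = 0.93), Entpd1 (0.92), Usp40 (0.92), Matn4 (0.91) and St6galnac4 (0.90). All 5 were lower in Atg5-/- AT2-PBS than in AT2-PBS in mean level. They were chosen for likeness to the members over these same 12 samples, so this is no separate observation. Entpd1, for example, was at 34.1 to 35.7 FPKM in AT2-PBS, 27.5 to 32.2 in AT2-BLM, 16.2 to 25.7 in Atg5-/- AT2-PBS and 29.6 to 40.5 in Atg5-/- AT2-BLM.

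**Figure D5:**
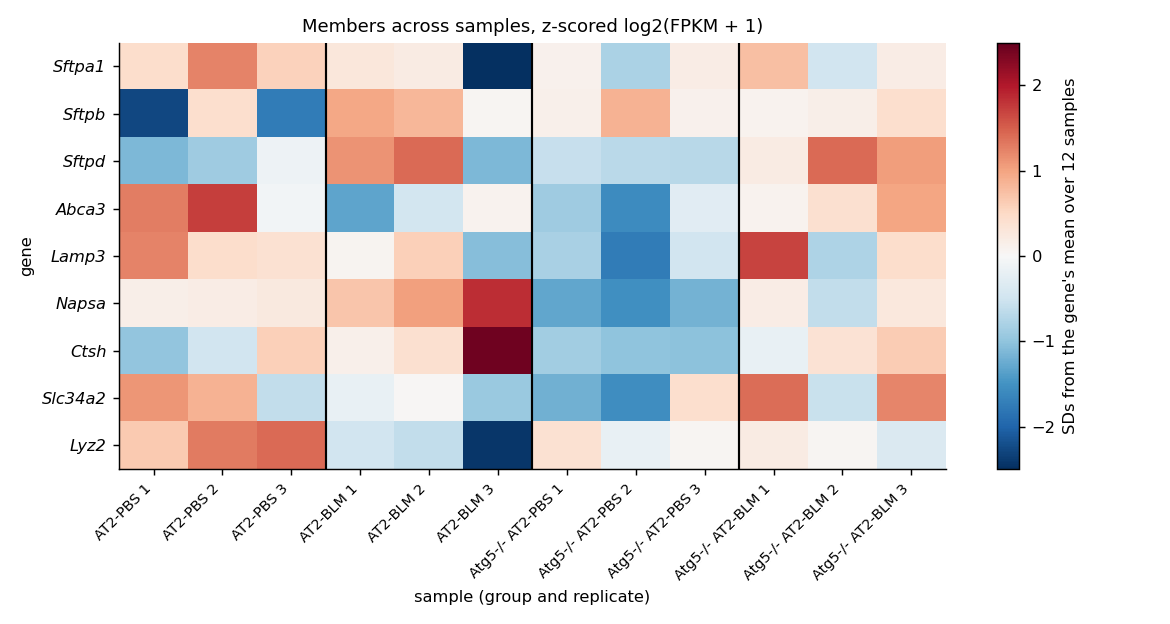
Rows are the 9 tested members, columns the 12 samples, and colours the SDs of log2(FPKM + 1) from the gene's mean over all samples. AT2-BLM replicate 3 is lowest in Sftpa1 and Lyz2 and highest in Napsa and Ctsh, AT2-PBS replicates 1 and 3 are lowest in Sftpb, and Atg5-/- AT2-PBS is low in Abca3, Lamp3 and Napsa.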

How the data were processed

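RNA-seq of sorted AT2 cells was available as 1 table of FPKM for 12 samples, 3 in each of 4 groups taken from the labels. The authors deposited FPKM values, and the submitters' processing notes name Trimmomatic 0.36, HISAT2 2.2.1.0, HTSeq 0.9.1, Cufflinks 2.2.1 and mm9. The study's methods name STAR and a DESeq normalization instead, and which of these made the deposited values is not settled. Low FPKM values showed no common step, so sequencing depth is unknown and no counting error is given.

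The 10675 of 21878 genes that reached 1 FPKM in 3 samples or more were fitted on log2(FPKM + 1) with limma 3.58.1 in R 4.3.3, with a mean-variance trend and no covariates. Fold changes on this scale understate those of low genes. Called genes had a fold of 1.4 or more with p below 0.05 before adjustment, and adjusted p-values are Benjamini-Hochberg over all genes tested. The fit was tested on simulated data. Figures and tables used Python 3.11.15 and matplotlib 3.10.9. Gene positions are from the mm9 GENCODE annotation.

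The members and lists were chosen with earlier results of these data known. List genes named as changed were called with an adjusted p under 0.05, at most 4 a list and comparison by size, with Nkx2-1, Epcam and Krt8 named besides. Not every list gene past the adjustment is named, so a missing name does not mean that a gene failed it. The 5 genes most like the members are named by Pearson r. The haemoglobin, islet and Y-linked lists, and Lgi3, Bmp1, Ins2, Bpifa1, Gapdh and Actb as examples, were chosen after values were seen. Alternatives were another pseudocount (0.1), no filter, scaling to Cdh1, median-ratio scaling, quantile normalization, a fit of the compared groups alone, a replicate block, an adjusted p threshold, each sample left out and Lyz1 and Lyz2 summed. A Y-linked covariate and the removal of 2 pairs of samples were added after seeing the data.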

Additional observations from a re-analysis of the deposited data

Results flagged for a closer look

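The change of Abca3 with BLM differed between genotypes. The log2 change was -0.51 in wild type, which was called, and 0.47 in Atg5-/- cells, which was not and was 0.00913 with scaling to Cdh1. The interaction term of the limma fit gave a difference of 0.98 (SE 0.26, adjusted p = 0.0417). It was the 1 member whose difference passed the adjustment. By p before adjustment, it stayed called without each of the 12 samples in turn (0.854 to 1.15) and with scaling to Cdh1 (0.758). The Atg5-/- AT2-PBS samples that enter the term had the highest leukocyte (without Lyz1), club cell, fibroblast and liver marker sums, and their part in it was not tested. Groups of 3 samples are too small for a test of outlying samples.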

How the results depend on the processing

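Members called among the 9 tested, main values 4 (BLM in wild type), 0 (Atg5 loss under BLM), 3 (Atg5 loss under PBS), 2 (BLM in Atg5-/- cells) and 4 (interaction), ranged over leaving out each sample, or AT2-PBS replicate 3 with AT2-BLM replicate 3, from 2 to 5, 0 to 1, 1 to 4, 0 to 3 and 1 to 4. Without the filter on low values they were 2 for BLM in wild type, 0 for BLM in Atg5-/- cells and 2 for the interaction. For BLM in Atg5-/- cells they were 1 with quantile normalization and 0 with median-ratio scaling. With scaling to Cdh1 they were 1 for Atg5 loss under BLM (Abca3), 1 under PBS, 0 for BLM in Atg5-/- cells and 2 for the interaction. With an adjusted p threshold they were 2, 1 (Atg5 loss under PBS), 0 (BLM in Atg5-/- cells) and 1 (interaction), and genes called were 1900, 1, 1199, 926 and 842. With Y-linked expression as a covariate they were 1 for Atg5 loss under BLM (831 genes) and 7 for the interaction. Without AT2-PBS replicates 1 and 3, chosen for their low Sftpb, AT2-PBS is 1 sample assumed to vary like the other groups, so these counts test nothing, and they were 2 for BLM in wild type, 1 for Atg5 loss under PBS and 1 for the interaction. The cause was not tested.

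Of 788 values of single members under alternatives, 628 kept direction and side of the threshold, 85 lost the call, 33 gained one and 42 changed sign. Signs changed with quantile normalization for Napsa (-0.165) with BLM in wild type, Sftpd (-0.395) with Atg5 loss under PBS, Sftpb (0.423), Napsa (-0.0082) and Lyz2 (0.921) with BLM in Atg5-/- cells, and Ctsh (0.158) in the interaction. With median-ratio scaling they changed for Sftpd (-0.0197) with Atg5 loss under PBS and Ctsh (0.0761) in the interaction. With scaling to Cdh1 they changed for Napsa (-0.0346) with BLM in wild type, Sftpa1 (0.0596), Napsa (0.0809) and Slc34a2 (0.0164) with Atg5 loss under PBS, Sftpa1 (-0.349), Napsa (-0.198) and Slc34a2 (-0.0113) with BLM in Atg5-/- cells, and Sftpd (-0.100) and Napsa (-0.163) in the interaction. With the Y-linked covariate they changed for Sftpd (-0.0321) and Ctsh (0.121) with Atg5 loss under PBS and Lyz2 (0.0964) with BLM in Atg5-/- cells. Without AT2-PBS replicate 3 and AT2-BLM replicate 3 they changed for Sftpa1 (-0.0368), Sftpd (-0.135) and Ctsh (0.00832) with Atg5 loss under BLM and Sftpd (-0.265) and Ctsh (0.159) in the interaction, and without AT2-PBS replicates 1 and 3 for Sftpb (-0.0526) with Atg5 loss under PBS, where leaving out 1 sample gave up to 2.38. Leaving out 1 sample gave both signs for Sftpd under Atg5 loss with PBS (-0.0488 to 0.129), for Sftpa1 (-0.0368 to 0.514), Sftpd (-0.135 to 0.317), Ctsh (-0.733 to 0.00832) and Lamp3 (-0.0121 to 0.464) under Atg5 loss with BLM, for Lyz2 (-0.111 to 0.0184), Sftpa1 (-0.00141 to 0.230) and Sftpb (-0.277 to 0.0977) with BLM in Atg5-/- cells, and for Ctsh (-0.306 to 0.443) and Sftpd (-0.160 to 0.292) in the interaction.

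Over all genes, scaling moved the split of calls into higher and lower. With BLM in wild type it was 2202 and 829, 1320 and 1371 with quantile normalization, 1467 and 1303 with median-ratio scaling and 986 and 1288 with scaling to Cdh1. With Atg5 loss under PBS it was 1507 and 551, 1208 and 1493 with quantile normalization and 2731 and 79 with Cdh1. With BLM in Atg5-/- cells it was 818 and 1144, 1105 and 1046 with quantile normalization and 118 and 2444 with Cdh1. With Atg5 loss under BLM it was 218 and 333, 250 and 265 with quantile normalization, 268 and 261 with median-ratio scaling and 355 and 90 with Cdh1. In the interaction it was 536 and 1620, 1331 and 1177 with quantile normalization, 773 and 1463 with median-ratio scaling and 212 and 1795 with Cdh1. Across groups, deviations from the group mean correlated above 0.1 in 4 of 18 pairs with the same replicate number (median -0.00292, from -0.295 to 0.227). They did so in 6 of 36 pairs with other numbers (median 0.0064, from -0.198 to 0.259). With 3 samples a group, this cannot settle whether a shared number marks samples prepared together. With a replicate block, members called were 4, 0, 3, 2 and 3, and genes called 3014, 558, 2055, 1959 and 2166.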
